A study of Mus musculus with 3 samples.

Results

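The interferon regulatory factors are a family of DNA-binding proteins, and 8 of their genes are described here across 3 libraries of nuclear RNA from mouse macrophages: Irf1, Irf2, Irf3, Irf4, Irf5, Irf7, Irf8 and Irf9. They were chosen by gene symbol and make up 8 of the 55536 annotated genes in the tables. Each symbol matched 1 gene identifier. The macrophages were grown from bone marrow of C57BL/6J mice and all received the same sequence of treatments. They were given lipid A, the TLR4-binding moiety of bacterial lipopolysaccharide, at 100 ng/ml for 12 h, were kept without it for 12 h, and were given 100 ng/ml again for 15 min. RNA of the nucleoplasm was depleted of ribosomal RNA and sequenced, so introns and unfinished transcripts were read along with finished mRNA. The 3 libraries form 1 group with no untreated control, and none of the genes below can be called induced or repressed. All 3 carry 1 donor identifier, and separate mice are not stated, so the spread given here may be that between cultures or between libraries.

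Every interferon regulatory factor carries a helix-turn-helix DNA-binding domain that recognises GAAA-containing sequences, the core of the interferon-stimulated response element. IRF3, IRF5 and IRF7 wait in the cytoplasm and are activated by kinases downstream of Toll-like and nucleic acid receptors. IRF9 is the DNA-binding part of the complex ISGF3 that answers type I interferon, IRF1 and IRF2 bind the same sites with largely opposed effects, and IRF4 and IRF8 work with partners such as PU.1 in the development of myeloid and lymphoid cells.

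The libraries of replicates 1, 2 and 3 held 23826101, 19312032 and 21730342 expected counts over annotated genes, and the 8 genes held 0.151%, 0.127% and 0.193% of them. The libraries were made from 1 µg of RNA, except replicate 2 with 500 ng. All 10 macrophage markers examined were detected, among them Lyz2, Ctss, Adgre1 and Csf1r. None of 7 dendritic cell, 6 B cell, 6 T cell, 6 granulocyte or 5 fibroblast markers was detected. Detection needed a TPM (a level scaled by transcript length and by library) of at least 1 in each library. Ccr7, S100a8 and S100a9 passed 1 in replicate 1 alone, at 1.53, 1.34 and 1.51 TPM. The summed TPM lay between 2.2 and 3.45 for the dendritic cell markers and between 0.98 and 2.94 for the granulocyte markers. It lay between 0.69 and 0.76 for B cell, 0.3 and 0.43 for T cell, and 0.08 and 0.32 for fibroblast markers.

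Irf7 stood far above the rest of the family, 6 genes shared a middle range, and Irf4 was close to the floor. With detection defined as reaching a TPM of 1 in each of the 3 libraries, 7 of the 8 genes were detected, Irf4 being the exception. Among all 22015 protein-coding genes encoded in the nucleus, 42.8% were detected. The median level of the 8 genes on the log2(TPM + 1) scale was 5.25 ± 0.15 (SD, n = 3), beside 3.25 ± 0.10 for the 9421 detected protein-coding genes. Irf7 supplied 60.4% ± 4.36 of the TPM summed over the 8 genes (SD, n = 3), and Irf1 came next with 11.7% ± 0.63.

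**Figure D1:**
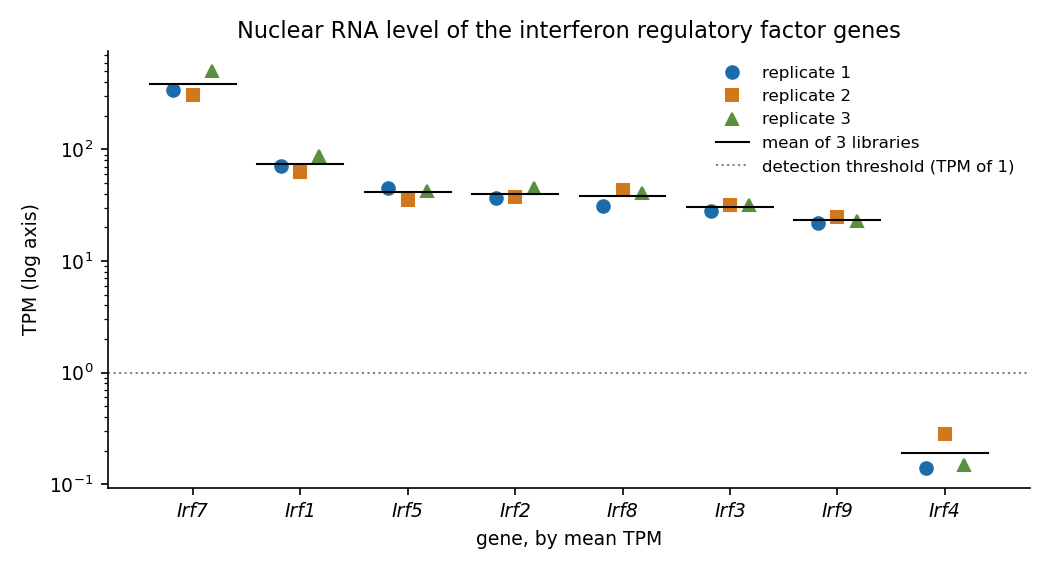
Level of each interferon regulatory factor gene in TPM on a log axis, with 1 point per library, a bar at the mean of 3 and a dotted line at the detection threshold. Irf7 lies between 308 and 509 TPM, 6 genes lie between 21.7 and 87.9 TPM, and Irf4 lies between 0.14 and 0.28 TPM.

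Among the factors that are activated by receptor signalling, Irf7 had a level several times that of Irf3 and Irf5. Irf7 encodes the factor that drives most interferon-alpha genes and is itself a target of interferon (ENSMUSG00000025498.15, mm10 chr7:141262706-141266481, minus strand). Its level was 341, 308 and 509 TPM in replicates 1, 2 and 3, from 20957, 13412 and 27083 expected counts. Replicate 3 was the highest and replicate 2 the lowest. By mean TPM it ranked 39 of the 9421 detected protein-coding genes.

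Irf5 encodes a factor that promotes inflammatory cytokine genes in macrophages (ENSMUSG00000029771.12, chr6:29526625-29541871, plus strand). It was measured at 45.5, 35.6 and 42.9 TPM. Irf3, which encodes the constitutively made factor that starts interferon-beta transcription (ENSMUSG00000003184.15, chr7:44997648-45002848, plus strand), was measured at 28.2, 31.7 and 31.5 TPM. The ranges of Irf5 and Irf3 did not overlap, and Irf7 exceeded Irf5 by 9.17-fold and Irf3 by 12.4-fold (geometric means of the within-library TPM ratios). In a second set of deposited values, with the columns that kallisto writes (kallisto-format values), these ratios were 4.85-fold and 11.1-fold.

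The genes of the interferon response itself spanned a smaller range. Irf1, whose product activates interferon-gamma responses and antigen presentation (ENSMUSG00000018899.16, chr11:53770014-53778374, plus strand), was the second most abundant of the 8 at 71.6, 62.2 and 87.9 TPM. Irf2, which encodes a competitor of IRF1 at shared sites (ENSMUSG00000031627.9, chr8:46739732-46847458, plus strand), was measured at 36.8, 37.2 and 45.2 TPM. The Irf1 to Irf2 ratio was 1.85-fold, with log2 ratios of 0.96, 0.74 and 0.96 in replicates 1, 2 and 3. Irf9, which encodes the DNA-binding part of ISGF3 (ENSMUSG00000002325.15, chr14:55603571-55610030, plus strand), had the lowest level of the detected members, at 21.7, 24.6 and 23.1 TPM. Stat2, which encodes a partner of IRF9 in that complex, was measured at 220 ± 57.9 TPM (SD, n = 3).

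The 2 members best known from lineage choice lay far apart. Irf8, which encodes a factor required for monocyte and dendritic cell development (ENSMUSG00000041515.10, chr8:120736358-120756694, plus strand), was measured at 31.1, 43.3 and 40.6 TPM. Irf4, which encodes its close relative (ENSMUSG00000021356.10, chr13:30749226-30766976, plus strand), was measured at 0.14, 0.28 and 0.15 TPM, from 24, 33 and 22 expected counts. In TPM, Irf8 exceeded Irf4 by 210-fold, with counts of Irf4 too few to place its level closely. In bulk RNA such as this, few cells that make a transcript and little of it per cell cannot be told apart.

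Ordered by mean TPM the genes ran Irf7, Irf1, Irf5, Irf2, Irf8, Irf3, Irf9 and Irf4, and the ranges of 4 of the 7 neighbouring pairs did not overlap. Irf7 exceeded Irf1 by 2.36 ± 0.15 on the log2 scale (SD, n = 3), and Irf1 exceeded Irf5 by 0.83 ± 0.19. Irf3 exceeded Irf9 by 0.40 ± 0.05, and Irf9 exceeded Irf4 by 7.0 ± 0.47. In the middle of the order the TPM ranges overlapped: Irf5 was above Irf2 in 1 of 3 libraries, Irf2 above Irf8 in 2 of 3, and Irf8 above Irf3 in 3 of 3 but with overlapping ranges. The order was the same in the kallisto-format values, where Irf7 exceeded Irf1 by 3.63-fold. There the step from Irf1 to Irf5 fell to 1.34-fold and their ranges overlapped. With both sets rescaled over protein-coding genes encoded in the nucleus, Irf8 was separate from Irf3 in each, and Irf2 from Irf8 in the kallisto-format values, by 0.29 ± 0.06 on the log2 scale (SD, n = 3).

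No member passed the test between libraries, a test of 1 library against 2 with 1 residual degree of freedom. Each library was compared with the other 2 by the edgeR quasi-likelihood test on 14350 genes, with an adjusted p under 0.05 as the call. It called 0.202% of all genes in replicate 1, 0% in replicate 2 and 0.00697% in replicate 3, and 0 of the 8 members in each. Of the 24 member tests, 2 had an unadjusted p under 0.05, and DESeq2 also called 0 members.

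The largest difference was that of Irf7 in replicate 3, higher by 0.75 on the log2 scale (SE 0.31, edgeR unadjusted p 0.0416, adjusted p 0.99958). Irf5 in replicate 2 gave the other unadjusted p under 0.05, at a log2 difference of -0.55 (SE 0.21, edgeR adjusted p 0.773). Irf1 pointed the same way as Irf7, at 0.47 (SE 0.26) in replicate 3 and -0.53 (SE 0.24) in replicate 2, and neither passed. Irf9 was the steadiest, with differences between -0.05 and 0.07. Across the libraries, log2(TPM + 1) had a median SD of 0.17 in the 8 genes and of 0.20 in detected protein-coding genes, an order that turned with TPM rescaled over protein-coding genes encoded in the nucleus, at 0.213 in the 8 genes and 0.203 in detected genes. In simulated counts of 14350 genes, the genes changed in replicate 1 had a mean count of at least 50, more than Irf4 has. There the test of replicate 1 against the others recovered 14 of 50 genes changed by 2-fold and 46 of 50 changed by 4-fold. It made 6 calls among unchanged genes.

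**Figure D2:**
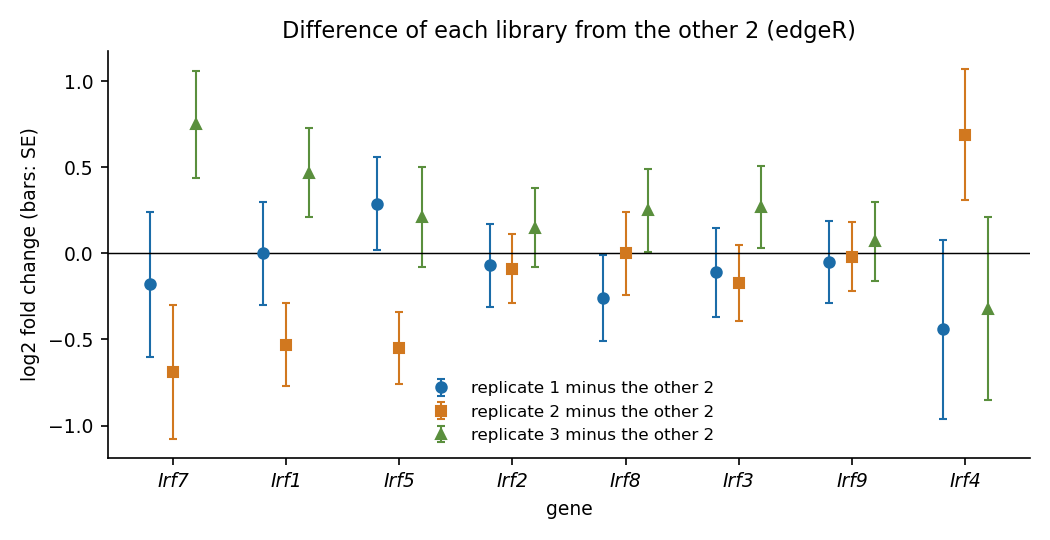
Log2 fold change of each library against the other 2 for the 8 genes, with SE bars, from edgeR. Replicate 3 is highest for Irf7 and Irf1 and replicate 2 lowest, by up to 0.75, while the values of Irf9 lie between -0.05 and 0.07.

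The members also differed in their annotated isoforms. Isoforms that GENCODE M21 classes as retained intron, noncoding models that keep intron sequence, held a median of 34.75% ± 1.86 of gene TPM (SD, n = 3) over the 6 detected members that have one. Among all detected protein-coding genes, 5980 have an isoform of this class, with a median share of 23.95% ± 0.44. In the RSEM-format values used so far (named for the tool that writes such columns), 5 of the 6 members lay above it. In the kallisto-format values the member median was 32.13% ± 1.51 beside 28.41% ± 1.04 for detected genes, and 3 of 6 members lay above the latter. In nuclear RNA, transcripts not yet spliced and finished transcripts that keep an intron cannot be told apart in these values.

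Irf3 and Irf7 were the 2 of 6 members with over 50% of their TPM in retained-intron isoforms, a share passed by 12.8% of genes that have one. In Irf3 they held 72.3%, 62.2% and 70.7% in replicates 1, 2 and 3, and in Irf7 51.6%, 51.8% and 57.8%. Irf9 followed with 35.0% ± 3.25, Irf2 with 34.5% ± 2.42, Irf8 with 28.1% ± 1.85 and Irf1 with 13.5% ± 0.62 (SD, n = 3 each). Irf5 and Irf4 have no isoform of this class in the annotation, so for them these values cannot show retention. The kallisto-format means were 67.4% for Irf3, 57.2% for Irf7, 37.8% for Irf9, 24.7% for Irf2, 26.4% for Irf8 and 9.83% for Irf1. In those values 17.4% of genes that have such an isoform passed 50%.

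**Figure D3:**
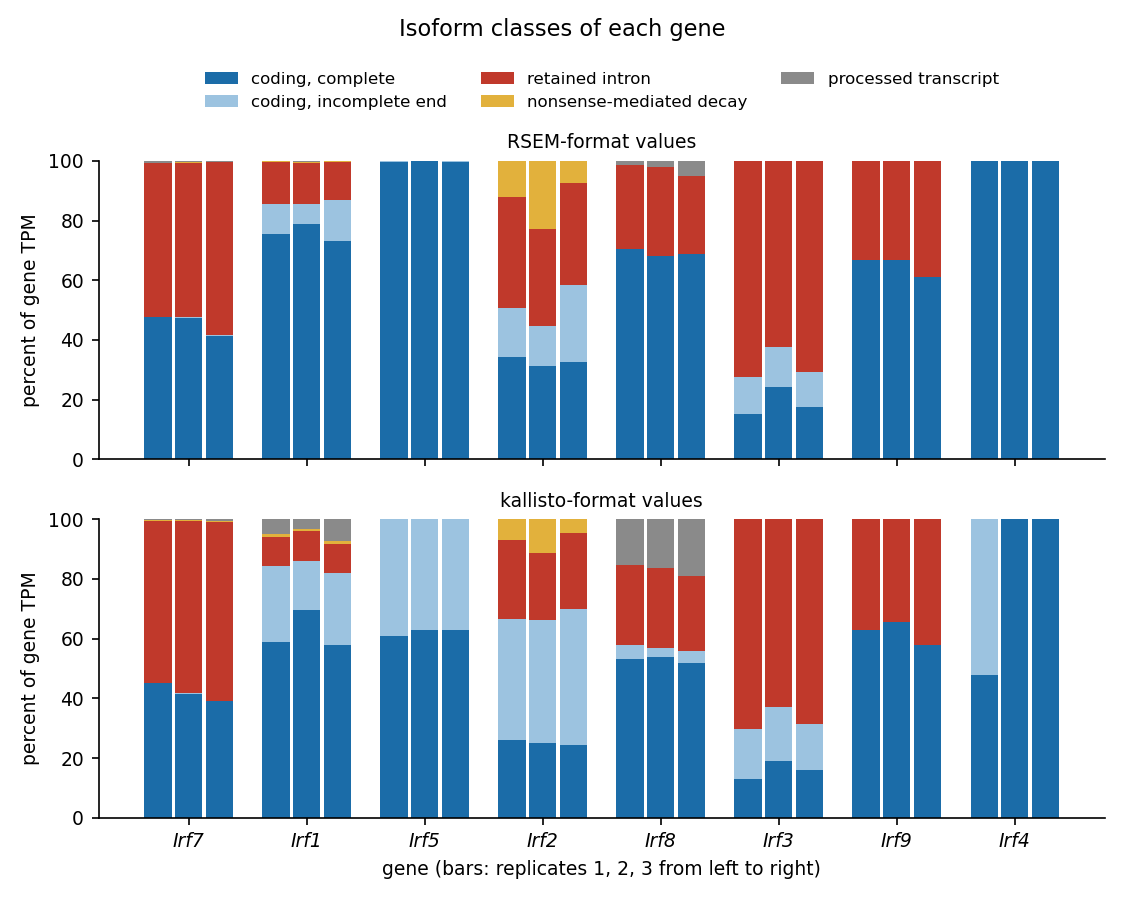
Percent of each gene's TPM in each annotated class of isoform, with 1 stacked bar per library, in RSEM-format values above and kallisto-format values below. Retained-intron isoforms take the most of Irf3 and Irf7 in both panels, and incomplete coding models take more of Irf5 and Irf2 in the lower panel.

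In Irf7 the share came mostly from 1 intron. The most abundant Irf7 isoform in every library was Irf7-210, a retained-intron model with 38.2%, 38.3% and 40.4% of gene TPM (kallisto-format mean 40.5%). The main coding isoform, Irf7-201, held 23.6%, 23.5% and 19.1%. In TPM, Irf7-210 was at 130, 118 and 205 and Irf7-201 at 80.4, 72.5 and 97.0, and the deposited posterior intervals of the pair did not overlap in any library. Irf7-210 keeps the fifth of the 9 introns of Irf7-201, a 69-base intron between coding exons at chr7:141264656-141264724. It is shown because the Irf7 result turns on it, read on the minus strand from mm10 transcript sequence, with the intron in capitals and 10 exon bases on each side in lower case.

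Irf7 intron 5, retained in 56.9%: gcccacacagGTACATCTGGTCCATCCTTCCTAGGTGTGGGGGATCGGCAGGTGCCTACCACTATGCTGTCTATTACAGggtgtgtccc
Irf7 intron 2, retained in 5.73%: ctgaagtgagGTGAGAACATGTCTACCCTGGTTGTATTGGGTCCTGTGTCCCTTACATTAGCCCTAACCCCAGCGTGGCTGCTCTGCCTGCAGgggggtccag
Irf7 intron 9, retained in 6.06%: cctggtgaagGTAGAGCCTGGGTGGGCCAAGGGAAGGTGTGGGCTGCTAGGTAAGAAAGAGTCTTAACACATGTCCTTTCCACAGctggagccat

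The other sequences are introns of similar length from the same transcript, at chr7:141265540-141265622 (83 bases) and chr7:141263381-141263455 (75 bases), printed in the same way for comparison. The share given with each is the TPM of isoforms that keep the intron as a percent of the TPM of those that keep it or splice it at the same ends.

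For intron 5 that share was 55.2%, 55.4% and 60.1% in the libraries of replicates 1, 2 and 3, averaging 56.9% ± 2.75 (SD, n = 3). The kallisto-format mean was 57.0% ± 1.60. The means of the other 8 introns of Irf7-201 lay between 5.73% and 11.3%, and no library of any of them reached the lowest value of intron 5. Some Irf7 isoforms splice from the same donor to a more distant acceptor (a 165-base intron, chr7:141264560-141264724). Counted over every isoform that splices from that donor, intron 5 was kept in 46.6%, 46.2% and 49.6%. Among 8512 introns of 3796 detected genes that some annotated isoform retains, the median retained share, taken with the same ends, was 21.3%. By that share intron 5, at 56.9%, lay above 76.2% of them.

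**Figure D4:**
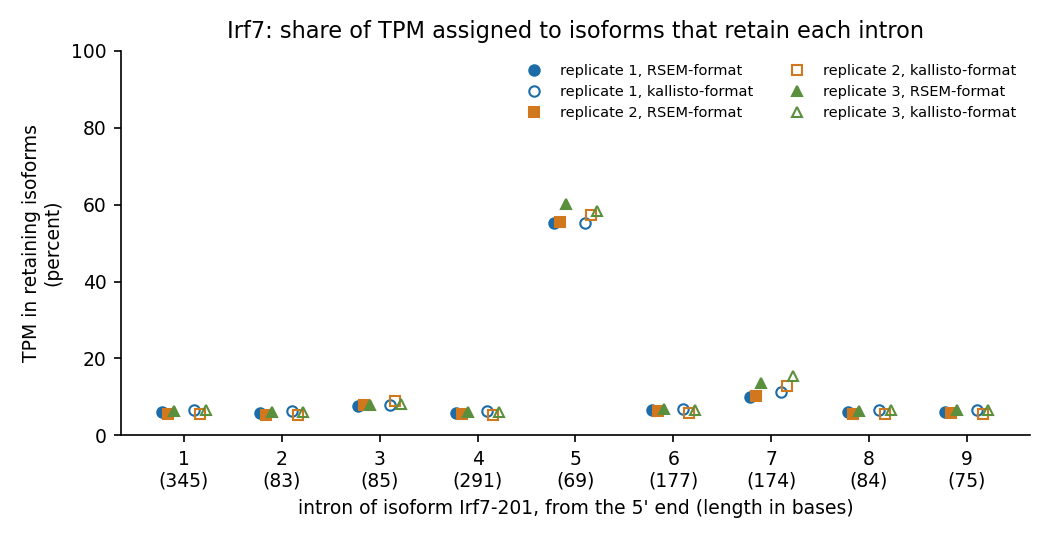
Percent of TPM in isoforms that retain each of the 9 introns of Irf7-201, numbered from the 5' end with lengths in bases, with filled points for RSEM-format and open points for kallisto-format values of each library. Intron 5 lies between 55.2% and 60.1%, and the means of the other introns lie between 5.73% and 13.2% over both sets of values.

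Intron 5 is the shortest of the 9, and 1.45% of the 8512 introns were shorter. Its GC content of 53.6% was close to the median of 51.2%. Its donor site, cagGTACAT with the intron in capitals, matched 7 of the 9 commonest donor letters, where the median intron matched 6. The length is a multiple of 3, and the intron holds 1 stop codon in the reading frame of the exons before it. A protein read through it would end there.

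Irf7-213, which keeps every intron of Irf7-201, held 5.44% of gene TPM. The low shares of the other introns rest mostly on this model, in which none of the 9 introns is spliced. The span of Irf7 shares 45 bases with Phrf1 on the opposite strand, a gene at 19.1 to 25.9 TPM, and the strand setting of the counting is not given here.

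In Irf3 the retained-intron share was spread over several models. Its leading isoform was Irf3-207 in replicate 1 and Irf3-210 in replicates 2 and 3, both of the retained-intron class, and Irf3-210 held 16.6%, 28.2% and 21.7%. Irf3-210, Irf3-208 and Irf3-212, at means of 22.2%, 12.6% and 8.07% of Irf3 TPM, are of this class but span no whole intron of a coding isoform. The class share of Irf3 is therefore not a share of TPM with a whole intron kept. Complete coding isoforms held 15.2%, 24.2% and 17.5% of Irf3 TPM. The 1 whole intron that Irf3 models keep is 98 bases long, at chr7:45000547-45000644, and is printed below from the plus strand with the same use of capitals.

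Irf3 intron, retained in 44.5%: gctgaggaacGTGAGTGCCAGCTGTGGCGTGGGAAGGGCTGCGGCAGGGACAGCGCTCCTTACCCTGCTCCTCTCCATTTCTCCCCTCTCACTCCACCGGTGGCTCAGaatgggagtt

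It was kept in 50.4%, 35.0% and 48.2% of the TPM that could show it (mean 44.5% ± 8.32, SD, n = 3), lowest in replicate 2. In the kallisto-format values it was kept in 46.3%, 27.68% and 45.75% (mean 39.9% ± 10.6, SD, n = 3). By its RSEM-format mean it lay above 71.1% of the introns compared. Its GC content of 65.3% was above that of 93.5% of the introns compared, and it holds no stop codon in frame, although its length is not a multiple of 3 and keeping it would shift the frame after it. The first 1065 bases of the Irf3 span overlap Bcl2l12 on the opposite strand, which was measured at 2.94 to 4.74 TPM.

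In Irf9, 5 introns are kept by some model. A 330-base intron at chr14:55604722-55605051 was kept in 39.0%, 28.4% and 48.2%, by the model Irf9-204, and in the kallisto-format values in 60.3%, 35.9% and 72.1%. Only 1 isoform splices it at the same ends. Isoforms that splice to its acceptor from other donors are left out of this share. By its RSEM-format mean it lay above 67.6% of the introns compared. A further 4 introns of Irf9 were kept in 18.8% to 18.9% (means of 3), mainly through the single model Irf9-206. Irf2 has 1 whole intron that a model keeps, at 9.34%, and the retained-intron models of Irf1 and Irf8 span no whole intron.

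Most members kept 1 leading isoform. In RSEM-format TPM, 6 of the 8 genes had the same leading isoform in all 3 libraries, the exceptions being Irf3 and Irf4, whose 22 to 33 counts cannot place its isoforms. Irf8-201, a complete coding model, held 65.3% ± 0.55 of Irf8 TPM (SD, n = 3), and Irf1-202 held 58.0%, 59.0% and 51.7% of Irf1 TPM. Both were lower in the kallisto-format values, at means of 44.1% for Irf8-201 and 37.6% for Irf1-202. Irf1-201 starts 481 bases downstream of Irf1-202 with a coding sequence of the same 987 bases, and held 13.3% ± 2.12.

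Irf5 was divided between a pair of complete isoforms with coding sequences of 1491 bases each and different first exons. Irf5-201, from the upstream start at chr6:29526625, held 79.0%, 88.9% and 77.5% in RSEM-format values. Irf5-202, from a start 2657 bases downstream, held 20.4%, 10.8% and 21.7%. The kallisto-format values reversed this order, with means of 20.5% for Irf5-201, 40.0% for Irf5-202 and 26.9% for Irf5-203, an incomplete model of 350 bases that was listed at 0 in the RSEM-format values. Which start of Irf5 was used more therefore depended on the set of values.

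Irf2-201, the complete coding isoform of Irf2, held 34.2%, 31.3% and 32.5%. Irf2-210, a model classed as a target of nonsense-mediated decay, held 12.1%, 22.9% and 7.48%, highest in replicate 2 in the kallisto-format values too. The leading Irf2 model there was Irf2-203, an incomplete model of 352 bases, at 30.4% ± 2.58 against 11.5% ± 2.43 in RSEM-format values (SD, n = 3). Irf9 had 3 complete coding models above 10%, of which Irf9-205 held 30.1%, 40.2% and 25.7% and Irf9-202 27.5%, 16.1% and 23.4%. This order too was reversed in the kallisto-format means, at 19.4% for Irf9-205 and 29.8% for Irf9-202.

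**Figure D5:**
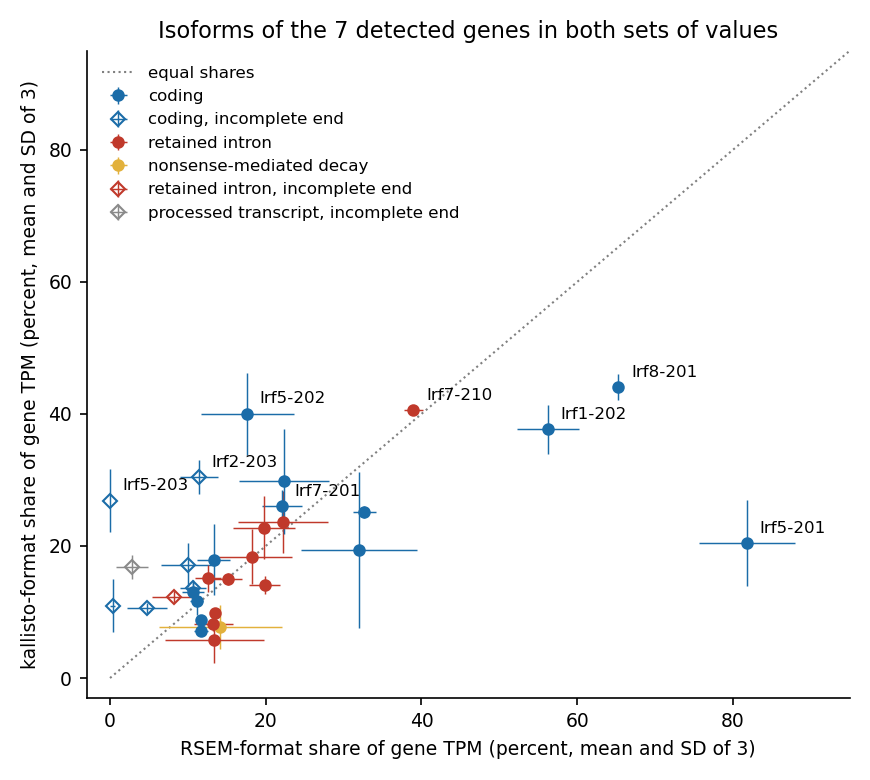
Share of gene TPM for each isoform of the 7 detected genes with at least 10% in either set, RSEM-format on the horizontal and kallisto-format on the vertical axis, as mean and SD of 3 libraries. Irf7-210 lies near the line of equal shares, while Irf5-201 falls from 81.8% to 20.5% and Irf5-202 rises from 17.6% to 40.0%.

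The genes that act on the family or with it were nearly all present. All 23 genes of a list of receptors, adaptors and kinases that activate IRF3, IRF5 and IRF7 were detected, with a median of 4.58 ± 0.11 on the log2(TPM + 1) scale (SD, n = 3) beside 3.25 for detected genes. Ikbke, a kinase that phosphorylates IRF3 and IRF7, was the highest at 247 ± 33.5 TPM, and Ddx58, which encodes the RNA sensor RIG-I, followed at 124 ± 10.3 TPM. Cgas, the cytosolic DNA sensor, was the lowest at 4.99 ± 0.46 TPM.

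Of 13 DNA-binding partners and cofactors 12 were detected, with a median of 4.13 ± 0.13. Batf3 was the lowest detected at 2.56 ± 1.39 TPM, and Spib, a lymphoid and plasmacytoid relative of PU.1, was under the threshold at 0.07 to 0.18 TPM. All 8 genes of a list that restrains the family or interferon signalling were detected. Usp18, which removes ISG15 and blocks the interferon receptor, was the highest at 76.6 ± 18.5 TPM, ahead of Trim21, a ubiquitin ligase for several family members, at 31.8 ± 1.73 TPM.

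Target genes had the highest median level of the 4 lists, with 17 of 19 detected and a median of 7.07 ± 0.22. Rsad2, which encodes the antiviral protein viperin, was at 594, 825 and 1146 TPM, and Ccl5, a chemokine gene, at 992, 613 and 829 TPM. Ifnb1, the interferon-beta gene, was the lowest detected at 1.5, 1.09 and 3.49 TPM, from 29, 15 and 63 counts. Ifna4, an interferon-alpha gene that IRF7 activates, was listed at 0 counts in all 3 libraries.

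Of the 63 genes of the 4 lists, 61 could be tested between libraries, and 1 passed, in replicate 1. It was Il12b, a cytokine subunit gene that IRF1 and IRF8 activate, at 3.22, 0.63 and 0.64 TPM from 193, 27 and 34 counts. It was higher in replicate 1 by 2.42 on the log2 scale (SE 0.42, edgeR adjusted p 0.0493). Its adjusted p ran from 0.026 with DESeq2 to 0.378 in edgeR with no filter on low counts, and it passed under DESeq2 alone of the 4 alternatives. Which list genes passed depended on the setting, as did the calls over all genes, so they are no result about the lists. With DESeq2, Socs1 differed by -1.78 in replicate 2 and Nos2 by 1.84 in replicate 3 on the log2 scale. In edgeR with no filter, list genes lower in replicate 2 included Il12b (-1.85) and Socs1 (-1.79), and those higher in replicate 3 included Nos2 (1.84). These list genes, Il12b included, are named because of their values. In the replicate 1 comparison Irf1 differed by 0.00 (SE 0.30) and Irf8 by -0.26 (SE 0.25) on the log2 scale. The cause of the Il12b difference was not tested.

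An exact match to 1 form of the interferon-stimulated response element was found in the promoter window of 1 member. RefSeq promoter windows (GRCm38.p6) were found for all 8 genes, 11 windows in all, and the 250 bases before each start were searched on both strands. The interferon-stimulated response element, searched as GAAA and GAAA with any 2 bases between, was found in 1 member, Irf2, and in 3.46% of 27025 genes. The STAT site GAS, searched as TTCNNNGAA, was found in Irf1, Irf2 and Irf8, and in 8.13% of genes. No mismatch was allowed, so a site that departs from these letters was not counted. The GC content of the searched bases lay between 53.6% and 74.4% in the 11 windows, beside a median of 52.4% over all windows. A match is only a description of letters, and no binding was measured here. The GAS matches of Irf1 (90 bases before its start, chr11:53769924-53769932) and Irf8 (171 and 153 bases before) are shown in capitals on the plus strand as examples.

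Irf1, chr11:53769899-53769957: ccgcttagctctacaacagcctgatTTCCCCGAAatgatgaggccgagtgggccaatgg
Irf8, chr8:120736162-120736220: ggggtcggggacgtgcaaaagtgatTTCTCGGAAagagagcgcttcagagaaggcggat
Irf8, chr8:120736180-120736238: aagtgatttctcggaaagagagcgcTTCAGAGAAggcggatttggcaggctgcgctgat

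Irf7, the highest member, held none of the 4 patterns searched in this window, and neither did Irf3, Irf4, Irf5 or Irf9. The windows did not cover the bases before the starts of Irf5-202 and Irf9-203. The start of Irf7-201 lay inside the Irf7 window, so the search there included transcribed bases. The NF-kappaB consensus was found in Irf1 and Irf2 and in 8.23% of genes. The composite site for PU.1 with IRF4 or IRF8, searched as GGAA and GAAA with any 2 bases between, was found in Irf2, where it overlaps the match to the response element, and in 2.68% of genes.

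Some members share their locus with other genes. Irf8 lies wholly inside Gm20388, a gene model on the same strand with 12.0 to 14.9 TPM, and Irf9 shares 123 bases with Rnf31 on the same strand (17.5 to 30.7 TPM). Irf1 overlaps Gm17334 over 907 bases on the opposite strand (7.18 to 14.4 TPM), Irf5 overlaps Tnpo3 over 1045 bases (19.2 to 23.1 TPM), and 3 opposite-strand models lie within Irf2 (each at most 8.64 TPM). How far these genes take counts from the members was not tested.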

How the data were processed

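Nuclear total RNA-seq of 3 libraries in 1 group was used. Tables were made against mm10 with GENCODE M21, per the notes deposited with them, and tools and versions are not stated in them. The deposited expected counts are the authors' estimated counts per gene and isoform, not normalised. The deposited TPM and posterior mean TPM were scaled by the authors to the same total in each library, and the deposited FPKM are fragments per length and depth. These have the columns that RSEM writes (RSEM-format). The deposited kallisto-format TPM and estimated counts per isoform were summed per gene.

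Detection needed a TPM of 1 or more in each library, and levels were taken as log2(TPM + 1). Isoform classes, ends and coordinates (counted from 1) came from GENCODE M21 and intron letters from its transcripts. Expected counts were rounded, filtered with filterByExpr, scaled by TMM and tested with the edgeR 4.0.16 quasi-likelihood test, 1 library against the other 2, at a Benjamini-Hochberg adjusted p under 0.05. DESeq2 1.42.0 in R 4.3.3 was an alternative. The test was tested on simulated data (14350 genes, 50 changed per fold). Python 3.11.15, pandas 2.3.3, numpy 2.4.6 and matplotlib 3.10.9 were used. Most TPM lay outside protein-coding genes encoded in the nucleus. Those genes held 19.9%, 22.2% and 20.6% of TPM in replicates 1, 2 and 3, and 8.47%, 14.7% and 2.92% in kallisto-format. Gene levels were therefore also rescaled over them. The p-values measure only the spread between these samples.

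Genes named were the 8 members, isoforms with at least 10% of gene TPM in either set, genes overlapping a member, and for each list the 2 highest and the lowest detected gene. Others are named as such or as markers, and some genes taken by this rule are not reported here. No genes of like pattern were sought, since 3 libraries of 1 group cannot rank them. The members and lists were chosen with earlier results of these data known.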

Additional observations from a re-analysis of the deposited data

How the results depend on the processing

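Of 66 alternative values of the summaries, 49 stayed close and 17 moved. A level or share moved if it changed by more than 1 SD of the replicates, and a count or a spread if it changed by over 1.5 times. Leaving out 1 library could not move a level or share by this rule, since it shifts the mean by less than 1 SD. Nor could it lower the count of detected genes or of genes that kept a leading isoform. The 49 include such values, which say nothing of stability. The median level of 5.25 became 4.11 with kallisto-format TPM, 7.48 rescaled over protein-coding genes encoded in the nucleus, 5.77 as FPKM and 7.82 with rescaled kallisto-format values. The median of detected genes moved with it, from 3.25 to 2.11, 5.38 and 5.49 in kallisto-format, rescaled and rescaled kallisto-format values. Neighbouring pairs with separate ranges numbered 4, 2 with kallisto-format TPM, and 4 to 5 without 1 replicate. There were 5 with rescaled TPM, with FPKM and with rescaled kallisto-format values, the last an alternative chosen after seeing the data. The median spread of 0.172 became 0.993 with kallisto-format TPM, and that of detected genes went from 0.201 to 0.891. With rescaled kallisto-format values these spreads were 0.217 in the 8 genes and 0.191 in detected genes. The median retained-intron share of 34.75% became 32.13% in kallisto-format values and 32.77% in expected counts, and 33.92% to 35.76% without 1 replicate. That of detected genes went from 23.95% to 28.41% in kallisto-format values and 13.54% in expected counts. Of the 8 genes, 6 kept their leading isoform, beside 5 in kallisto-format values and 7 in posterior mean TPM. Without 1 replicate, 6 to 8 kept it (8 without replicate 1).

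Genes called in replicate 1, 2 and 3 against the others numbered 29, 0 and 1 with edgeR, and 882, 877 and 536 had an unadjusted p under 0.05. DESeq2 called 76, 18 and 33. With no filter on low counts edgeR called 0, 349 and 161. It called 18 in replicate 1 and 0 in replicate 3 from kallisto-format counts, and 2 in replicate 1 with DESeq2 size factors. The cause was not tested. No member was called in any library under these 4 alternatives, with DESeq2 giving no adjusted p for 1 of 8 in replicates 1 and 2. Leaving out a library was not run for these counts, since 1 library against 1 leaves no residual degrees of freedom. No paired analysis was possible because there is 1 group. Irf4, at 22 to 33 counts, is the member whose values depth limits most.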
